A study of Mus musculus with 3 samples.

Results

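Peaks of the forkhead transcription factor Foxf2 at the starts of noncoding transcripts in the developing mouse tongue are described here. They are the peaks whose midpoint lay within 2500 bp of the start of a transcript that is not protein coding and more than 5000 bp from every protein-coding start, in the GENCODE basic annotation of mm10. The rule took 1446 of the 25704 peaks on the main chromosomes, which is 5.63% (exact 95% interval 5.35 to 5.91, counting error only). It used position alone, so peak height and sequence were not part of the choice.

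Mice carried 3 copies of the FLAG epitope on the endogenous Foxf2 protein, made by CRISPR genome editing, and every library came from tongues of homozygous embryos at stage E12.5. The anti-FLAG group held 2 ChIP-seq libraries and the control group 1 library of input chromatin, so that both carried the same tagged allele. The labels name 75 dissected tongues on each sample, without saying if that is the number for 1 library or for all of them. FLAG ChIP from untagged tongue was not part of the series, and the peaks form 1 list with no value per library, so read depth and the spread between libraries are unknown.

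Long noncoding RNAs are transcripts that are spliced and capped like messenger RNAs but are not translated into protein; many start near genes of developmental regulators, and some carry microRNAs in their introns or exons. Forkhead factors bind DNA through a winged-helix domain that recognises a short core sequence, and Foxf2 is expressed in mesenchyme of the embryonic gut, palate and tongue. A peak near a start shows where the tagged protein was recovered, and does not show that the transcript is made or is controlled by Foxf2.

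The name long noncoding covered only part of the set. For 774 of the 1446 peaks (53.5%, interval 50.9 to 56.1) the nearest noncoding start belonged to a long noncoding RNA, of which 541 were lincRNAs (between genes) and 171 were antisense transcripts. Pseudogenes, which are mostly processed copies of messenger RNAs, were nearest for 261 peaks (18%). Small RNA genes were nearest for 210 (14.5%), among them 69 microRNAs, 57 snRNAs and 36 snoRNAs. A further 195 (13.5%) lay at TEC entries, which are single-exon models not yet verified by experiment, and 6 lay at immunoglobulin or T cell receptor segments. Counting any long noncoding start within 2500 bp, and not just the nearest, gave 792 peaks (54.8%) and left 654 with none. The whole set is therefore called peaks at noncoding starts.

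The forkhead core was searched on both strands in 4 forms. The strict form was GTAAACA. A looser form was ATAAACA, a further one GTAAATA, and the loosest of these ATAAATA. Sequences from 6 of the 15 highest-scored peaks are shown first, picked after they were seen so that each form of the core is shown. Each is 41 bases of mm10 (GRCm38), 5' to 3' on the strand given, around the core nearest to the peak centre, with that core in capitals.
Gm44862, chr7:6744851-6744891, plus strand: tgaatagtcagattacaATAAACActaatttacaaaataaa
Mir3072, chr12:109749437-109749477, plus strand: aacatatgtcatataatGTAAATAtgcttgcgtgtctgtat
2310081O03Rik, chr4:56222127-56222167, plus strand: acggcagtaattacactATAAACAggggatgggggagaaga
Gm27241, chr9:72615007-72615047, minus strand: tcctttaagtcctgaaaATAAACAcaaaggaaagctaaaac
Gm36933, chr1:180376935-180376975, plus strand: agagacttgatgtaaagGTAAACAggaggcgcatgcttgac
Gm36325, chr8:91714061-91714101, plus strand: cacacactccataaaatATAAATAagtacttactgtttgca
A match is a description of the letters, not a bound site.

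The peak with the highest score of the set, 185.8, ranked 10 in the whole list. It lay 2206 bp downstream of the start of the TEC entry Gm44862 and past its end, inside Usp29, a paternally expressed imprinted gene, 14.3 kb from its start. The next, at 158.8 and rank 22, lay near Mir3072 and covered the annotated end of Mirg, an imprinted long noncoding RNA. The third, at 141.1 and rank 41, lay inside the lincRNA 2310081O03Rik, 2398 bp from its start and 518 kb from the nearest protein-coding start. These were the 3 peaks of the set among the 100 highest of the list.

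The remaining members of the highest 15 had scores between 90.5 and 110.6. The lincRNA Gm43616 (peak at chr3:143579289-143579501) had 110.6 and was the 1 peak of the 15 with no forkhead core in its central 200 bp. Its nearest protein-coding gene was Lmo4, a LIM-only cofactor of transcription, 623 kb away. The antisense transcript Gm27241 had 106.9, inside Rfx7, a regulatory factor X gene, with the start of the ubiquitin ligase gene Nedd4 47.3 kb away. The lincRNA Gm47007 (peak at chr13:101854800-101855012) had 102.5, with Pik3r1, a regulatory subunit of PI3 kinase, 86.7 kb away. The lincRNA Gm36325 had 90.5 at 343 bp downstream of its start and 26.8 at 1666 bp. Its nearest protein-coding gene was Irx3, an Iroquois homeobox factor, 87.8 kb and 89.2 kb from these peaks. Also among the 15 were the TEC entry Gm36933 (104.5, in Itpkb), the small RNA genes Gm25025 (104.5), Gm22827 (103.6), Gm23903 (100.3), Gm25092 (95.6) and Gm26489 (94.3), the lincRNA Gm48812 (99.4) and the pseudogene Gm12028 (92.0). Of the 15, then, 6 lay at long noncoding RNAs and 9 at small RNA genes, TEC entries or a pseudogene. The next pseudogenes were Gm29486 (80.1) and Gm12871 (75.8, 7 cores), and the third TEC entry was Gm45867 (76.5).

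The peak score, which is the authors' own value on a scale that is not stated, had a median of 16.6 at noncoding starts (interval 16 to 17.2), against 14.8 at protein-coding starts (14.5 to 15.1), 16.4 in distal peaks (16.2 to 16.5) and 16.2 in the whole list. Protein-coding start peaks are the 3148 with a midpoint within 2500 bp of a protein-coding start, and distal peaks are the 20305 more than 5000 bp from any such start and more than 2500 bp from a noncoding one. Peaks at noncoding starts thus stood level with distal peaks and above those at protein-coding starts, by intervals that did not overlap. Their share among the highest 1000 of the list was 51 of 1446, and 3.89% of all peaks are in that class. The focus ratio, the caller's fraction for how tightly reads gather at the centre, had a median of 0.783, against 0.746 at protein-coding starts and 0.786 in distal peaks. Every interval here covers counting of peaks in 1 list and not variation between embryos.

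**Figure D1:**
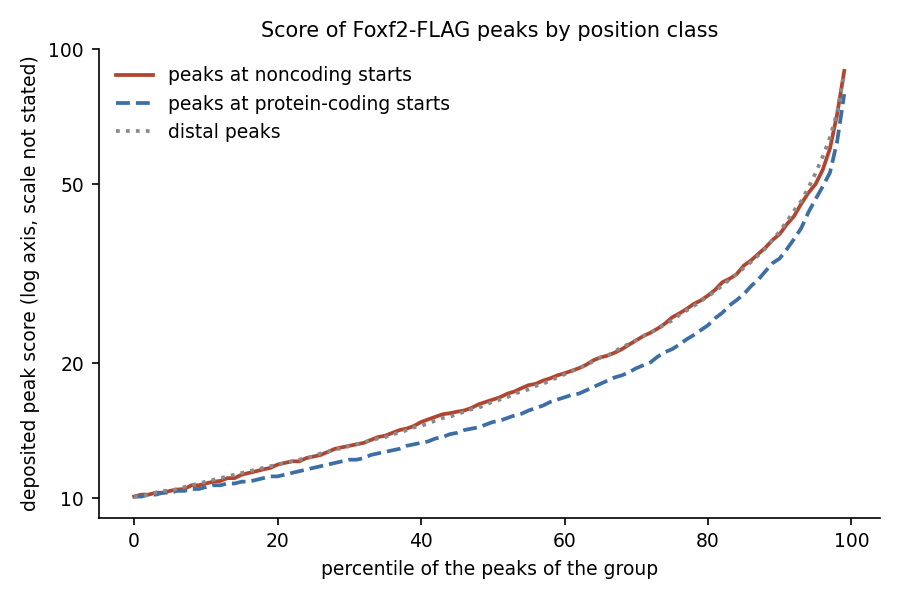
Deposited peak score (log axis, scale not stated) at each percentile of the peaks at noncoding starts, at protein-coding starts and distal to both. The curve of peaks at noncoding starts (median 16.6) runs along that of distal peaks (median 16.4), and the curve of protein-coding starts (median 14.8) lies under both.

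Position around the start differed by type of transcript. Of peaks nearest to a long noncoding start, 185 of 774 (23.9%, interval 20.9 to 27.1) had their midpoint within 250 bp of it. The share was 39 of 210 (18.6%) at small RNAs, 23 of 195 (11.8%) at TEC entries and 14 of 261 (5.36%, interval 2.96 to 8.84) at pseudogenes. At protein-coding starts it was 1279 of 3148 (40.6%, interval 38.9 to 42.4). Long noncoding starts therefore stood between pseudogenes and protein-coding starts. At pseudogenes the 250 bp before and after the start held 2.30% and 3.07% of the peaks. The outermost 250 bp upstream and downstream held 5.36% and 6.13%. The median distance was 913.5 bp at long noncoding RNAs and 1458 bp at pseudogenes, against 372.5 bp at protein-coding starts.

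Within that central stretch the long noncoding peaks leaned upstream. The 250 bp before the start held 123 of the 774 and the 250 bp after it 60. At protein-coding starts the same bins held 676 and 603 of 3148. Over the whole window the sides were even, with 384 of 774 upstream.

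**Figure D2:**
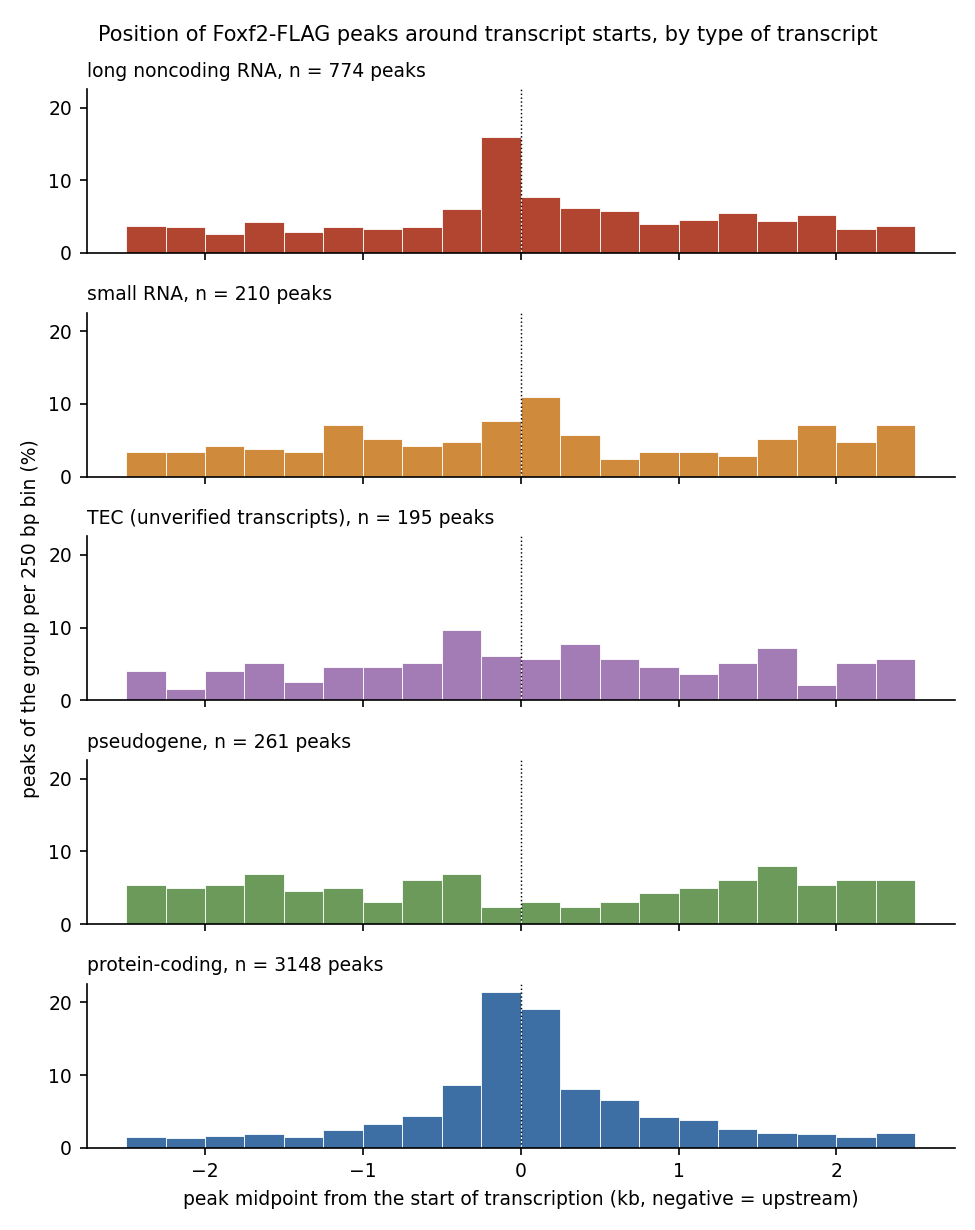
Percent of each group's peaks per 250 bp bin, by the distance of the peak midpoint from the nearest start (kb, negative is upstream), for long noncoding RNAs, small RNAs, TEC entries, pseudogenes and protein-coding starts. The bin just upstream holds 15.9% of long noncoding peaks and 21.5% of protein-coding ones, and pseudogenes have no central rise.

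Counted by gene, 1421 of 28419 noncoding genes with a start more than 5000 bp from protein-coding starts had a peak of the set within 2500 bp, which is 5%. Listed peaks within 5000 bp of a protein-coding start were not counted. Long noncoding RNA genes had one in 744 of 8011 cases (9.29%, interval 8.66 to 9.94). TEC entries followed with 182 of 2678 (6.80%), then small RNAs with 218 of 5062 (4.31%) and pseudogenes with 267 of 12169 (2.19%). Within 250 bp the share was 2.41% for long noncoding genes and 0.123% for pseudogenes. The 1446 peaks were nearest to 1338 different noncoding genes and 1103 different protein-coding genes. The 3 noncoding genes with 3 peaks each were Carmn, the lincRNA Gm45941 and the antisense transcript Gm31763, whose highest scores were 10.9, 20.4 and 19.4. The next by count had 2 each, led in score by Mir3072 and Gm36325.

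Peaks at noncoding starts lay a median of 57.5 kb from the nearest protein-coding start, and 431 of 1446 (29.8%) were inside a protein-coding gene. That share was 110 of 195 (56.4%) for TEC entries and 84 of 210 (40%) for small RNAs, and lower for pseudogenes (61 of 261, 23.4%) and long noncoding RNAs (176 of 774, 22.7%). Another peak lay within 10 kb for 568 of them (39.3%), against 36.7% of the whole list.

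The central 200 bp held a forkhead core in 1032 of 1446 peaks at noncoding starts (71.4%, interval 69.0 to 73.7), against 62.2% at protein-coding starts (60.4 to 63.9) and 74.0% of distal peaks. In the whole list 72.5% held it, so the share was near the background. Windows of the same width 2000 bp to either side of the same peaks held it in 17.3%. A single core was present in 744 peaks, 2 cores in 218 and 3 or more in 70. In 74.7% of the peaks with a core, the nearest one lay within 20 bp of the peak centre. GTAAACA, which is 1 of the 4 forms, was found in 375 peaks (25.9%), against 29.8% at protein-coding starts and 27.4% of the whole list.

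The core was more frequent in higher-scored peaks of the set. It was present in 213 of 362 peaks (58.8%, interval 53.6 to 64.0) in the lowest of 4 groups of equal size by score, then in 69.3% and 74.5%, and in 300 of 362 (82.9%, interval 78.6 to 86.6) of the highest. Peaks with 2 or more cores made up 30.4% of the highest group and 15.5% of the lowest. Median GC content was 43.5% in the highest group and 45.5% in the lowest.

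**Figure D3:**
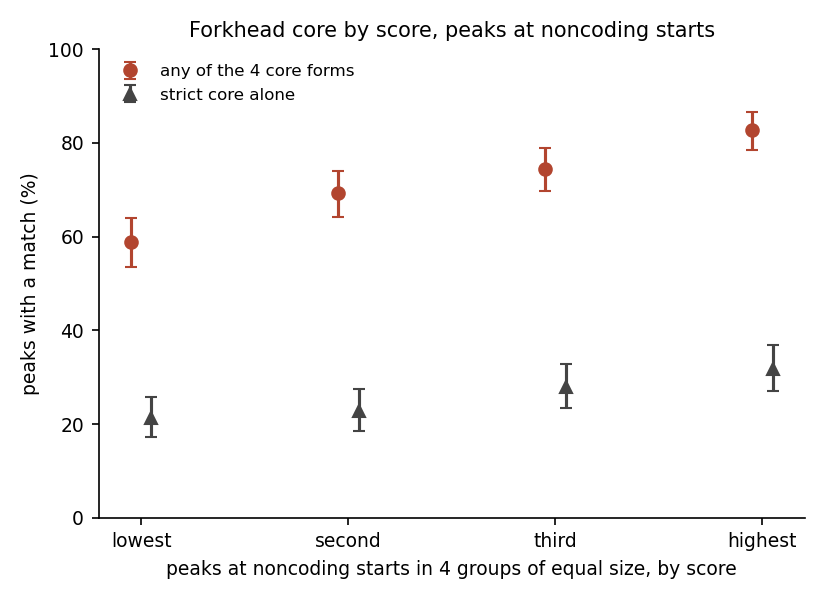
Percent of the peaks at noncoding starts with a forkhead core in the central 200 bp, and with the strict form alone, in 4 groups of equal size by score. Bars are exact 95% intervals of counting. The share with any form is 58.8% in the lowest group and 82.9% in the highest, and that with the strict form 21.3% and 31.8%.

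Base composition differed from that at protein-coding starts. Median GC content was 44.5% (interval 44.0 to 45.0), against 53.0% at protein-coding starts (52.5 to 53.5) and 42.5% in distal peaks. The ratio of observed to expected CpG was 0.278, against 0.625 and 0.238. GGGCGG, the GC box recognised by Sp-family factors, was in 88 peaks (6.09%), against 27.4% at protein-coding starts, 3.14% of distal peaks and 6.37% of the whole list. Within 250 bp of a long noncoding start it was in 26 of 185 (14.1%, interval 9.39 to 19.9), and within 250 bp of a protein-coding start in 42.1% (39.4 to 44.9). At more than 2000 bp the shares were 6.31% and 7.46%, with intervals that overlapped. The forkhead core showed the opposite order close to the start, with 67.0% at long noncoding starts (interval 59.7 to 73.7) against 49.1% at protein-coding ones (46.3 to 51.9).

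**Figure D4:**
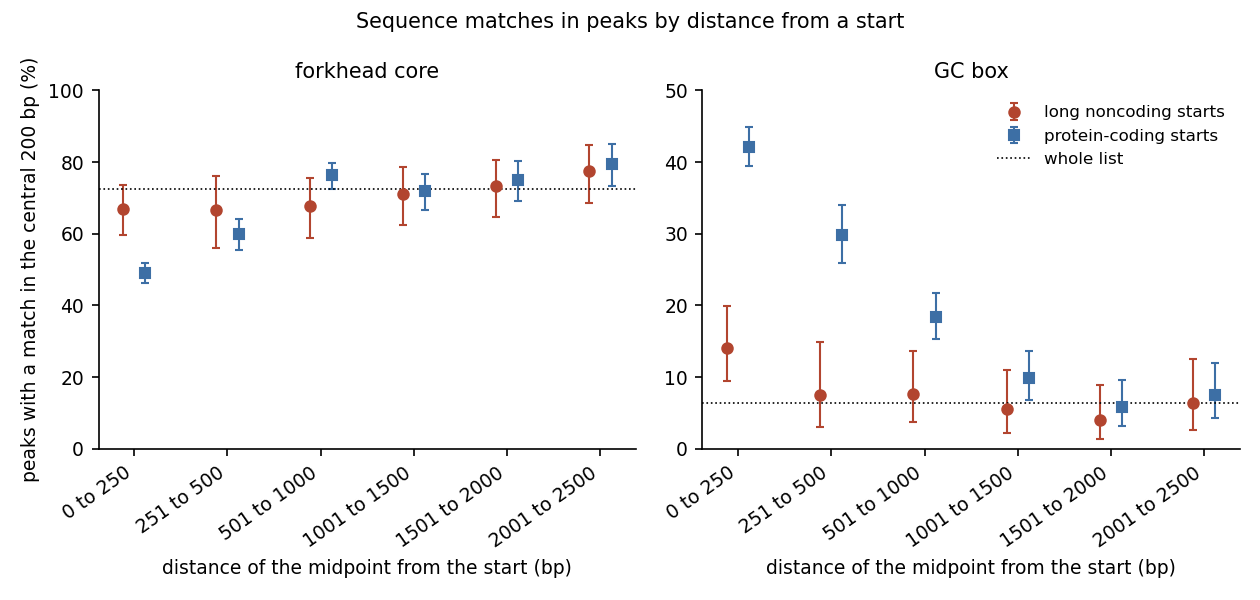
Percent of peaks with a forkhead core (left) and with a GC box (right) in the central 200 bp, by distance of the midpoint from the start, for long noncoding and protein-coding starts, with exact 95% intervals and the share of the whole list as a dotted line. Within 250 bp the core is in 67.0% and 49.1% and the GC box in 14.1% and 42.1%. For the core the intervals of both classes overlap in every bin beyond 250 bp. For the GC box they overlap in every bin beyond 1000 bp.

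Other short sequences were counted in the same windows. CATCTG, an E-box form bound by basic helix-loop-helix factors such as Twist, was in 414 peaks (28.6%), against 14.7% at protein-coding starts and 28% of the whole list; windows 2000 bp to either side of the peaks held it in 15%. CAGCTG, another E-box, was in 19.2%, against 14.4% and 18.7%. GGAATG, the form bound by TEAD factors of the Hippo pathway, was in 14.9%, against 10.1% and 15.1%. Within 250 bp of long noncoding starts GGAATG was in 45 of 185 peaks (24.3%, interval 18.3 to 31.2) and farther out in 83 of 589 (14.1%, interval 11.4 to 17.2). The motif of CTCF, the factor that marks chromatin loop ends, matched 26 peaks (1.8%), against 0.604% at protein-coding starts and 1.43% of the whole list. At least 50% of the window was masked as repeat in 3.46% of the peaks, against 3.28% of the whole list, with 7.66% at pseudogenes and 1.68% at long noncoding RNAs.

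MicroRNAs are short RNAs cut from hairpins in longer transcripts, and they repress messenger RNAs that pair with bases 2 to 8, the seed. The start used here for a microRNA is the start of its hairpin, not that of the primary transcript. The 69 peaks nearest to a microRNA start belonged to 65 genes, and 36 microRNA genes within 2500 bp of a peak of the set are in the RefSeq sequence table (GRCm38.p6). Forkhead cores were in 47 of these 69 peaks (68.1%, interval 55.8 to 78.8). The microRNA genes named here other than Mir3072 and Gm25025 were chosen after their values were seen.

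Both peaks at Mir30 genes lay on the hairpin itself. At Mir30b the peak (chr15:68337378-68337590) had a score of 68.4, its midpoint was 26 bp from the hairpin start, and its window held 3 cores. At Mir30c-2 the score was 50.1 and the midpoint was 17 bp from the hairpin start. The mature sequences, from RefSeq with the seed in capitals, and the central 200 bases of the Mir30c-2 peak, with both cores in capitals, are shown because the seed and the core are spelled alike. The hairpin lies at chr1:23291701-23291784 on the plus strand.
mmu-miR-30c-5p: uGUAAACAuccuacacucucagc
mmu-miR-30c-2-3p: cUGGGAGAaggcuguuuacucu
Mir30c-2 peak, chr1:23291618-23291817, plus strand: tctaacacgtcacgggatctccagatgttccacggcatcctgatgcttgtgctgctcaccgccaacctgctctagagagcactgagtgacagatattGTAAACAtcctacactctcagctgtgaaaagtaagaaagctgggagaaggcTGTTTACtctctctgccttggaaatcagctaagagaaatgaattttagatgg
The seed of miR-30c-5p, GUAAACA, is the strict forkhead core written as RNA. In DNA these 7 bases stood at chr1:23291715-23291721, and the middle one was the midpoint of the peak. The second core, on the minus strand, fell in the 3p arm of the same hairpin, 51 bp from the midpoint.

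The seed GUAAACA was carried by 5 of the 1738 mature sequences of the table, from Mir30a, Mir30c-1, Mir30c-2, Mir30e and Mir384. Peaks did not overlap the other 4 hairpins. The nearest peak was 7694 bp from the middle of Mir30a (score 11.4), 36566 bp from Mir30c-1 and 39639 bp from Mir30e (the same peak, score 14.3) and 274255 bp from Mir384. Mir30b has no mature sequence in the table, so its seed was not read. Neither Mir30b nor any other gene missing from the table could be counted among these 5. Mir30b had a peak on its hairpin with 2 strict cores in the window, as did Mir30c-2. Of the 1005 hairpins in the table, 6 were overlapped by their nearest peak, 4 of them by a peak of the set.

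The miR-199 and miR-214 hairpins lie on the opposite strand of the dynamin genes and are known from mesenchymal tissue. Their sequences are shown because 2 of the hairpins give the same mature arm. Among the 36 microRNA genes near these peaks that are in the table, they are the 1 pair that share a seed. Genes missing from the table, such as Mir30b, could not be compared.
mmu-miR-199a-3p (Mir199a-1): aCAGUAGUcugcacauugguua
mmu-miR-199b-3p (Mir199b): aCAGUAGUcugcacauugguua
mmu-miR-214-3p (Mir214): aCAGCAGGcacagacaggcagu
A peak of 12.1 lay 384 bp upstream of Mir199a-1, inside Dnm2. A peak of 35.6 lay 739 bp upstream of the hairpin Gm23363 and within 2500 bp of Mir199b, inside Dnm1. A peak of 33.0 lay 1580 bp downstream of the Mir214 start, inside Dnm3 and inside the antisense host transcript Dnm3os. All 3 windows held 1 core. The Dnm3os locus also had distal peaks, the highest with scores of 63.2 and 47.6 at -44.7 kb and -30.6 kb from its first start.

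Further known microRNAs had peaks in the set as well. Mir101b had a peak of 33.6 at 1947 bp, and Mir760 one of 26.7 at 844 bp. A second peak of the set, with a score of 13.5 and nearest to the start of Gm17494, overlapped the Mir760 hairpin. Mir204, inside Trpm3, had 19.4 at 1002 bp with no core. Mir9-2, which is known from neural progenitors, had 11.7 at 125 bp upstream with 1 core. Mir6352, inside the ephrin receptor gene Epha4, had 13.7 at 201 bp, and Mir6346, inside the Hedgehog effector gene Gli2, had 17.9 at 705 bp.

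Genes of snRNAs and of the U3 snoRNA, which serve in splicing and in ribosomal RNA processing, showed a placement of their own kind. This group was chosen after its values were seen. More than 100 and up to 400 bp downstream of an snRNA or snoRNA start lay 20 peaks (15 at snRNAs, 5 at snoRNAs), against 2 in the same stretch upstream. Their transcripts are short, from 104 to 216 bp, and 19 of the 20 midpoints were past the transcript end, by a median of 43 bp over all 20. The lower limit of 100 bp in part fixes this, because it leaves out midpoints closer to the start.

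A cluster inside Tex14 held 6 of them. The U1 gene Rnu1a1 (peak at chr11:87422957-87423169) had a score of 24.5 and the snRNA gene Gm22068 one of 33.3. The U3 genes Rnu3b1, Rnu3b2, Rnu3b3 and Rnu3b4 had 27.6, 16.2, 53.5 and 17.3. Only the Rnu3b3 window held a forkhead core, and the Rnu3b2 and Rnu3b4 windows were 85.5% and 50.5% repeat-masked. Over all 20 peaks the core was in 8 (40%, interval 19.1 to 63.9), against 60 of the other 73 snRNA and snoRNA peaks (82.2%, interval 71.5 to 90.2) and 72.5% of the whole list. Scores in the 20 ran from 10.9 to 53.5 with a median of 18.9, against 19.1 in the other 73 and 16.2 in the whole list. The U2 gene Rnu2-10 (12.9) and the U5 gene Rnu5g (25) belonged to them and had no core. These genes exist in near-identical copies, and how the authors treated reads that align to several copies is not given in the sources used here, so the values of single copies are uncertain. The part of such reads in the peaks was not tested.

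Imprinted genes are expressed from the copy of 1 parent, and the Dlk1 to Mirg domain carries several maternally expressed noncoding RNAs, among them Meg3, Rian and Mirg. The domain was described in detail because it held the second-highest peak of the set. These 41-base stretches are from 4 of its 6 peaks at noncoding starts, beside the Mir3072 one shown first; the Meg3 window held no core.
Gm34081, chr12:109517514-109517554, minus strand: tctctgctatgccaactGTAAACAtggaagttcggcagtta
Gm34081, chr12:109518788-109518828, minus strand: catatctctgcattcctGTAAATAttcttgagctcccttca
Gm27528, chr12:109532576-109532616, plus strand: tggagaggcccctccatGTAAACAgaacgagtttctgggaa
Mir3072, chr12:109748647-109748687, plus strand: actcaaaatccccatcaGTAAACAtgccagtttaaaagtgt
Upstream of the lincRNA Gm34081, peaks of 21.3 and 33.5 lay 782 bp and 2073 bp from its start. A peak of 38.4 lay 141 bp downstream of the misc_RNA start of Gm27528, and 1 of 43.7 (chr12:109538584-109538796) lay 2315 bp upstream of Meg3. At the far end, peaks of 41.9 and 158.8 lay 793 bp and 1580 bp downstream of the Mir3072 hairpin start. The scores stood above the list median of 16.2 at all 6 sites, and 757 of the 1446 peaks of the set were at or above it. For the peak of 158.8 this was fixed beforehand, because the domain was chosen for it. The distal peaks shown on either side of the domain ran from 10.3 to 29.8. The Dlk1 start itself had a peak of 11.1, and peaks of 41.1 and 92.0 lay 4.19 kb and 3.27 kb from the start of Rtl1, the protein-coding gene between Meg3 and Rian, which keeps them out of the set. Which transcript a peak belongs to was not tested.

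**Figure D5:**
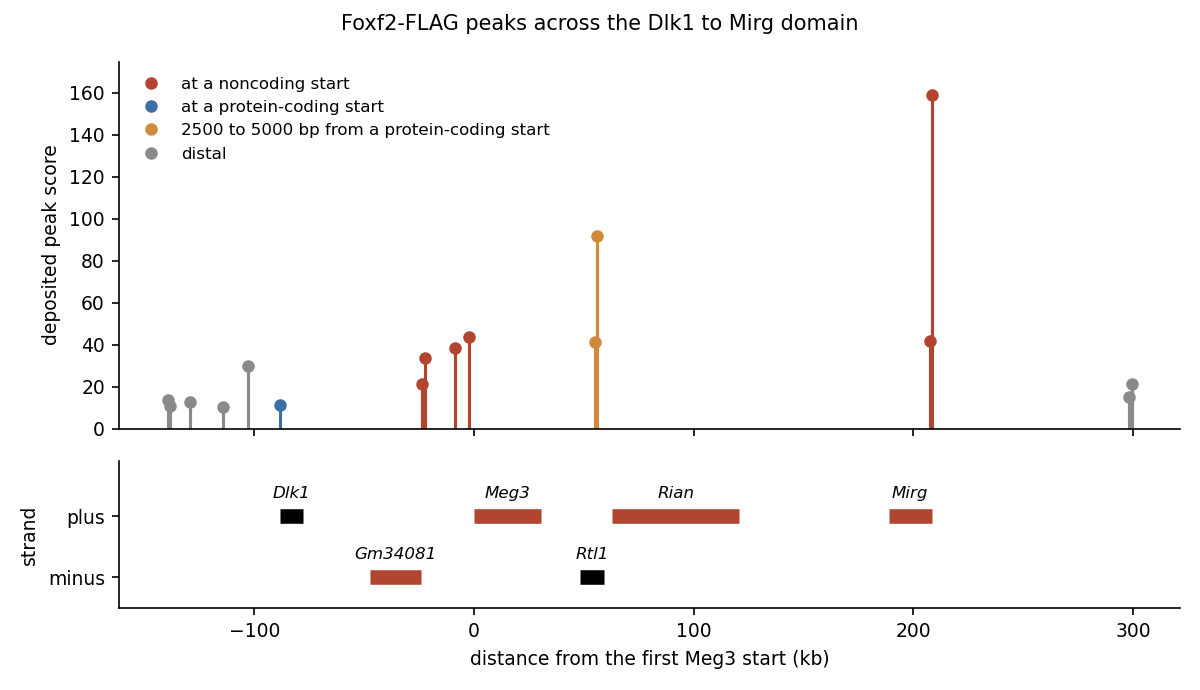
Deposited score of each peak across the Dlk1 to Mirg domain (upper panel, coloured by position class) above the annotated genes by strand (lower panel), in kb from the first Meg3 start. The highest peak, 158.8, lies at the end of Mirg, and the peaks near Gm34081, Gm27528 and Meg3 range from 21.3 to 43.7.

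Known noncoding genes were read from 4 lists, counting those with a start more than 5000 bp from protein-coding starts. Of 16 such genes beside developmental regulators, 4 had a peak of the set within 2500 bp, against 5% of all noncoding genes and 9.29% of long noncoding ones. At Nkx2-2os the start concerned is a misc_RNA entry, not a long noncoding one. Of 14 imprinted or dosage-compensation genes 2 had such a peak. In the microRNA host list 3 of 12 had it, and in the abundant nuclear or snoRNA host list 3 of 18. Carmn, also a microRNA host, was counted in the last list and not among the microRNA hosts. Fendrr, the neighbour of Foxf1, was among those with no peak of the set. Peaks within 5000 bp of a protein-coding start lie outside the set, so any such peak at Fendrr was not counted here.

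Beside developmental regulators the 4 scores ran from 10.5 to 19.6. Haglr, a transcript of the HoxD cluster, had 17 at 727 bp, with Hoxd3 10.2 kb away. Nkx2-2os had 19.6 at 1264 bp from a misc_RNA start under that name, with Pax1 56.5 kb away. No long noncoding start lay within 2500 bp of this peak. Hotair, of the HoxC cluster, had 12.2, in a peak nearest to the misc_RNA entry Gm27443 at 83 bp. Rmst, a neural transcript, had 10.5 at 245 bp. Each of these 4 windows held a forkhead core, and those of Haglr and Gm27443 read as follows.
Haglr, chr2:74749744-74749784, plus strand: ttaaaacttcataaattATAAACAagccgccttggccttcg
Gm27443, chr15:102947552-102947592, plus strand: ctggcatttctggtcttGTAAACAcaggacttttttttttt

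Among the genes of the microRNA host list, which leaves out Carmn, the 4 scores ran from 19 to 74.9. Mir99ahg, the host of miR-99a, let-7c and miR-125b, has 13 annotated starts and 2 peaks of the set at them. The higher, 74.9 and rank 441 (chr16:77499998-77500210), lay 112 bp upstream of an internal start, with a GC content of 55% and no forkhead core. The lower, 26.4, lay 478 bp downstream of another start and held GTAAACA. Other peaks lay along the same gene, among them a distal one of 36.8 and a peak of the set of 14.5, nearest to Gm37311.
Mir99ahg, chr16:77329988-77330028, plus strand: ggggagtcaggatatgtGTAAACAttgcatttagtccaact
Mir17hg, the host of the miR-17 to miR-92 cluster, had 32.8 (chr14:115040835-115041047) at 1938 bp upstream, with a GC content of 68.0%. A distal peak of 81.1 lay at -26.3 kb from its start. Dleu2, the host of miR-15a and miR-16, had 19 (chr14:61682236-61682448) at 17 bp, with a GC content of 60% and 1 core. Of these 4 peaks, 3 had a GC content of 55% or more, against 118 of the 1446 peaks of the set. The core was missing in 1 of the 4, and 71.4% of the set held it.

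The last lists gave mostly low scores. Meg3 had the 43.7 given above and Jpx, an activator of X inactivation, 10.1 at 250 bp. Snhg8 and Snhg17, which host snoRNAs, had 10.1 at 92 bp and 10.2 at 53 bp, both without a core. A further peak of 11.6, nearest to the pseudogene Gm9369, also lay within 2500 bp of Snhg8. Carmn, the smooth-muscle host of miR-143 and miR-145, had 3 peaks of 10.9, 10.8 and 10.1 within 1276 bp of its starts. Higher peaks of 59.0 and 67.6 lay 7.95 kb and 11.9 kb into the Carmn locus, outside the distance limit.

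The rule has limits of distance, and these were the peaks nearest to them. Just inside 2500 bp were the peaks at Gm23206 (2496 bp, score 22.8) and Gm48615 (2499 bp, 13.0), and just outside those at Gm45232 (2501 bp, 19.7) and AC161932.2 (2503 bp, 10.3). Just beyond 5000 bp from a protein-coding start were Gm19721 (5088 bp from Gnai2, 10.3) and Gm38285 (5136 bp from Tshz3, 12.3). Just short of it, and so left out, were Gm24265 (4934 bp from Sirt4, 27.9) and Sspnos (4938 bp from Sspn, 10.6).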

How the data were processed

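The values were 1 table of 25707 peaks from anti-FLAG ChIP-seq with input as control. Per the submitters' processing notes, Bowtie2 2.4.1, SAMtools 1.7.1 and HOMER were used with mm10. Per the design text, Bowtie2 aligned the reads and HOMER called the peaks. HOMER's version and settings were not given in the sources used here, nor was any pooling of libraries. The peak score is the authors' deposited value. The focus ratio is a fraction, also deposited, per the file headers.

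The 3 peaks of an unplaced contig were not used. Starts came from GENCODE M21 basic and sequence from GRCm38, which is mm10. Motifs, GC content and repeats were read in the central 200 bp. Intervals at 95% are exact (Clopper-Pearson for shares, order statistics for medians) and cover counting only. With 1 list and no value per library, no test was made. Named genes are those of the 15 highest-scored peaks, the 5 genes with most peaks, the 3 highest peaks per type, list genes with a peak, and peaks nearest each distance limit. All others were chosen after their values were seen. The members and lists were chosen with earlier results of these data known. Scripts were checked on simulated data, in Python 3.11.15 with pandas 2.3.3, numpy 2.4.6, matplotlib 3.10.9 and scipy 1.17.1.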

Additional observations from a re-analysis of the deposited data

How the results depend on the processing

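The number of peaks at noncoding starts was 684 with a limit of 1000 bp, 792 with long noncoding types alone and 757 at or above the median score of the list. It was 1340 with protein-coding starts more than 10000 bp away and 1448 with transcripts sorted by gene type. The share with a forkhead core was 78.7% at or above the median score, 66.9% in a window of 100 bp and 25.9% with GTAAACA alone; each of these narrows the peaks, the window or the motif. Median GC content was 45.5% within 1000 bp and 46% with long noncoding types alone; the cause was not tested. The other settings stayed within the interval of the value reported, among them the core share of 71.8% without peaks of 55% GC or more, an alternative chosen after seeing the data. No paired analysis was possible because the list has no values per library, and leaving out a library could not be done for the same reason. Depth is unknown, so a start with no listed peak is not shown to be unbound. A start counted here as having no peak of the set may still have a listed peak nearby. Such a peak was left out if it lay too close to a protein-coding start.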
